A study of Mus musculus with 10 samples.

Results

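The genes described here are 10 antiviral effectors that interferon induces outside the OAS, IFIT and ISG15 families: Mx1, Mx2, Rsad2, Bst2, Ifi27, Ifi27l2a, Ifi35, Ifi44, Rtp4 and Xaf1. They were picked by symbol from the 20813 genes of the deposited table, and all 10 had values and passed the filter on low values. The list was drawn up after interferon response genes were known to be higher in 1 of the groups, so the difference between the groups in these genes is a description and was not used as a test. Spleens were taken from C57BL/6 mice into which T-ALL cells (acute leukemia of immature T cells) had been transplanted. The leukemias of both groups held a conditional Sirt1 allele, and the recipients of both had been irradiated below the lethal dose, so host blood cells can remain in the tissue. The 5 spleens labelled Sirt1 deleted (replicates 7, 8, 10, 11 and 12) came from recipients given tamoxifen, 3 mg per mouse in corn oil, and the 5 control spleens (replicates 2 to 6) from recipients given corn oil alone. Tamoxifen and the deletion therefore cannot be told apart. The Cre driver, the age of the mice and the number of separate leukemias are not given in the sources used here, so p-values measure only the spread between these samples.

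Type I interferons bind the IFNAR receptor, and the kinases JAK1 and TYK2 then activate STAT proteins, which act together with IRF9. The resulting complex binds interferon-stimulated response elements and switches on effector genes that act at different steps of a viral life cycle. Blood and immune cells of the spleen both make and answer interferon, and tumour cells can show the same program without infection.

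The promoters of 5 of the 10 genes were matched by symbol in the RefSeq table of the GRCm38.p6 build: Bst2, Rsad2, Ifi35, Ifi44 and Xaf1. The 250 bases before each start were searched on both strands for the core of the interferon-stimulated response element, written GAAA, any 2 bases, GAAA. The motif was found in 2 of these 5 windows, Bst2 and Rsad2, and in 2.98% of 32851 promoter windows of the same length. The 2 windows are shown because Bst2 and Rsad2 share the motif but differed in how they moved between the spleens. They run 5′ to 3′ on the strand of the gene and end at the base before the start, and capitals mark the motif on either strand.
Bst2, chr8:71537473-71537722, minus strand: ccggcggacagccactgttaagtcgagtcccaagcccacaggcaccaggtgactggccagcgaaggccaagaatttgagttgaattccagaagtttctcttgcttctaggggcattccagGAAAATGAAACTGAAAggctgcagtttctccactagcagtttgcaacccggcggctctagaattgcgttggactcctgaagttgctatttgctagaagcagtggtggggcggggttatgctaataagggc
Rsad2, chr12:26456453-26456702, minus strand: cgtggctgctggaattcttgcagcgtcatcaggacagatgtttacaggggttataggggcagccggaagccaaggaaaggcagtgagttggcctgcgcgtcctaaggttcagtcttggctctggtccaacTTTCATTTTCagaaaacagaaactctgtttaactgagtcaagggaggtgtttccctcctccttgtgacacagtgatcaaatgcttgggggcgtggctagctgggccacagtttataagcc
Bst2 held 2 overlapping matches, GAAAATGAAA and GAAACTGAAA, whose first bases lay 130 and 124 bases before the start. Rsad2 held 1 match on the opposite strand, TTTCATTTTC, beginning 120 bases before the start. The gamma-activated site, written TTC, any 3 bases, GAA, was found in Bst2 alone of the 5 windows (TTCCAGGAA, 136 bases before the start, running into the first match) and in 7.02% of all windows. A match describes the letters only, and a window without one gives no information on binding.

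The table held 33.7 to 34.5 M normalized counts per spleen, and the spacing of low values put the depth near 31.4 to 38.5 M reads (M, mega). The Sirt1 transcript did not separate the groups, with values of 1715 to 2097 in the spleens labelled Sirt1-deleted and 1735 to 1909 in controls. The former are called the labelled Sirt1-deleted spleens for that reason. The value is a gene total in bulk tissue in which host cells can remain, and the deleted part of the gene is not given in the sources used here. It therefore cannot show whether the deletion took place. Of 15276 genes tested, 36.1% passed the threshold (limma, Benjamini-Hochberg adjusted p under 0.05). With the deposited scaling, 46.4% of these were higher in the labelled Sirt1-deleted spleens, and with upper-quartile rescaling 58.5%. Of 12 T lineage markers, all tested, 4 were lower, 1 was higher (Cd3d) and 7 did not pass in limma (median log2 difference -0.10), and their summed value was 159650 to 175244 in the labelled Sirt1-deleted spleens and 180955 to 196478 in controls.

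Of the 10 effector genes, 9 were higher in every labelled Sirt1-deleted spleen than in any control spleen, and Rsad2 overlapped between the groups. A gap of this kind in the higher direction was found for 11.1% of all tested genes. The same 9 passed the threshold in limma, all as higher, against 16.8% of all tested genes in that direction. The ratio of group means among the 9 ran from 1.84 for Ifi35 to 6.73 for Mx2. The median log2 difference over the 10 genes was 1.67, on the scale of log2(value + 1), beside a median of -0.000142 over all tested genes.

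**Figure D1:**
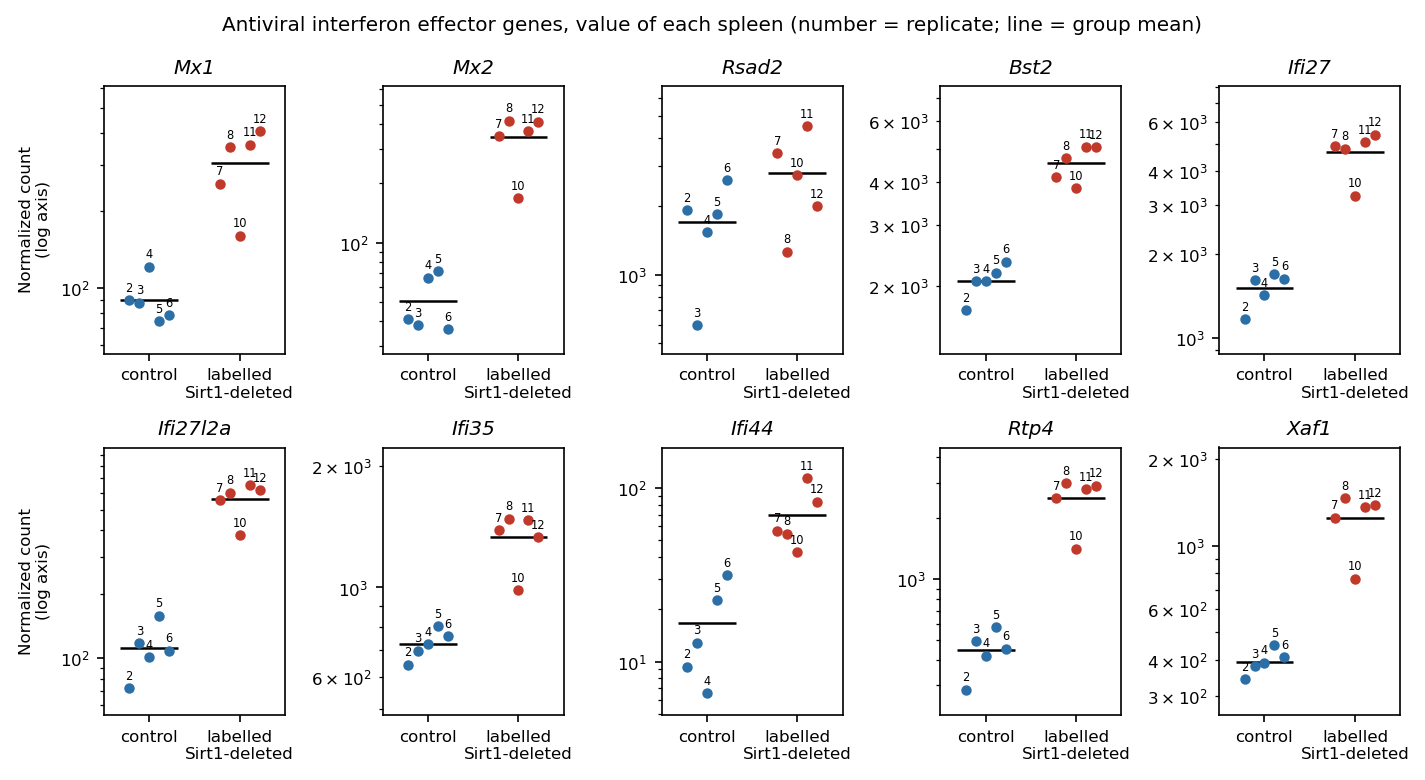
Normalized count of each of the 10 antiviral effector genes (log axis) in the 5 control spleens (blue) and the 5 labelled Sirt1-deleted spleens (red). Each point is 1 spleen with its replicate number, and the line is the group mean. In 9 panels the red points lie above all blue points, with replicate 10 lowest of the red points; in the Rsad2 panel the groups overlap.

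Mx1 and Mx2 encode dynamin-like GTPases that trap incoming viral nucleoprotein. Both lie on chromosome 16 of GRCm38, Mx1 at 97447035 to 97462907 on the minus strand and Mx2 at 97535308 to 97560900 on the plus strand. RefSeq lists both in this C57BL/6J assembly as transcribed pseudogenes, and GENCODE M21 lists Mx1 as protein coding and Mx2 as a polymorphic pseudogene, so their values are transcript levels and say nothing of protein. The normalized counts of Mx1 in labelled Sirt1-deleted replicates 7, 8, 10, 11 and 12 were 254.7, 354.4, 160.0, 361.5 and 407.6. In control replicates 2 to 6 they were 89.45, 87.64, 121.1, 74.11 and 78.54. Replicate 10 had the fewest counts of its group and was still above control replicate 4, the highest control. The group means of Mx1 were 307.6 ± 99.6 and 90.2 ± 18.4 (SD, n = 5 each), a log2 difference of 1.71 (SE 0.23).

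Mx2 had the largest log2 difference of the 10 genes. Its labelled Sirt1-deleted values were 348.4, 416.1, 168.0, 369.4 and 412.1, in the replicate order above. Its control values were 41.09, 38.28, 66.69, 71.91 and 36.64. The controls fell into a lower set, replicates 2, 3 and 6, and a higher pair, replicates 4 and 5, and all stayed below replicate 10 of the other group. The means were 343 ± 102 and 50.9 ± 17.0 (SD, n = 5 each), and the log2 difference was 2.72 (SE 0.27). Of the 31-base words in the Mx2 transcripts, 7.96% also occur in Mx1, and 8.67% of those in Mx1 occur in transcripts of other genes, Mx2 first among them. How reads were divided between such copies was not tested.

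Bst2 encodes tetherin, a membrane protein that holds budding virions at the cell surface and that also marks plasmacytoid dendritic cells in the mouse. It lies on chromosome 8 at 71534255 to 71537456, minus strand. Normalized counts in labelled Sirt1-deleted replicates 7, 8, 10, 11 and 12 were 4145, 4699, 3839, 5066 and 5060. Controls 2 to 6 had 1701, 2065, 2065, 2186 and 2352. Both groups were tight, and the lowest labelled Sirt1-deleted spleen stood well clear of the highest control. Bst2 averaged 4562 ± 552 against 2074 ± 240 (SD, n = 5 each), 2.20 times as much, with a log2 difference of 1.14 (SE 0.10). Of 6 tested markers of plasmacytoid dendritic cells other than Bst2, 1 passed, Siglech, as higher, beside 16.8% of all tested genes. The summed value of all 8 such markers was 3878 to 5535 against 3847 to 5141, and Klk1 was listed at 0 in at least 1 spleen. In bulk tissue, more cells of a type and more RNA per cell cannot be told apart.

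Ifi27 and Ifi27l2a belong to the ISG12 family of small hydrophobic proteins, found at mitochondria and the nuclear envelope. They are neighbours on chromosome 12, Ifi27 at 103434211 to 103440239 on the plus strand and Ifi27l2a at 103442167 to 103443680 on the minus strand. Ifi27 measured 4917, 4813, 3249, 5061 and 5395 in the labelled Sirt1-deleted spleens. The control values of Ifi27 were 1168, 1614, 1424, 1696 and 1633. The 4 spleens other than replicate 10 lay close together, and replicate 10 fell between them and the controls. The Ifi27 means were 4687 ± 833 and 1507 ± 215 (SD, n = 5 each), with a log2 difference of 1.63 (SE 0.13).

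Ifi27l2a measured 554.7, 600.8, 377.5, 652.6 and 615.4 in the labelled Sirt1-deleted spleens and 72.03, 117.2, 101.2, 158.3 and 108.4 in controls. Again replicate 10 was lowest among its group, and control replicate 2 the lowest of all. Means were 560 ± 108 and 111 ± 31.2 (SD, n = 5 each), 5.03 times as much, and the log2 difference was 2.34 (SE 0.20). Ifi27 shared no 31-base word with transcripts of another gene in the annotation, and 6.0% of those of Ifi27l2a were shared with its paralog Ifi27l2b.

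Rtp4 encodes a zinc-finger receptor transporter protein that restricts flaviviruses in several mammals. It lies on chromosome 16 at 23520291 to 23614222, plus strand, where it overlaps Gm45338 on the same strand and Masp1 on the other, and 12.5% of its 31-base words are shared with Gm45338. Rtp4 had 2521, 2988, 1419, 2784 and 2904 normalized counts in the labelled Sirt1-deleted spleens. Controls had 284.7, 496.2, 419.3, 579.7 and 454.1. The groups were far apart, and the lowest spleen of the upper group, replicate 10, was still far above control replicate 5, the highest control. The means were 2523 ± 642 and 447 ± 109 (SD, n = 5 each), a ratio of 5.65 and a log2 difference of 2.48 (SE 0.21).

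Xaf1 encodes a partner of the apoptosis inhibitor XIAP that promotes cell death. It lies on chromosome 11 at 72301629 to 72313733, plus strand. Its values were 1253, 1465, 766.2, 1359 and 1380 in the labelled Sirt1-deleted spleens and 342.6, 379.4, 390.9, 449.8 and 407.8 in controls. Controls varied little, and replicate 10 was the single low spleen of the other group. Xaf1 averaged 1245 ± 278 against 394 ± 39.3 (SD, n = 5 each), with a log2 difference of 1.63 (SE 0.15). The gene of its partner, Xiap, fell by 0.22 on the log2 scale (SE 0.06, limma adjusted p = 0.0182), with means of 3751 ± 243 and 4364 ± 343. That call was lost under upper-quartile rescaling.

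Ifi35 encodes a leucine-zipper protein that pairs with NMI. It lies on chromosome 11 at 101448407 to 101458698, plus strand, with Gm11626 on the other strand. Of its 31-base words, 12.8% match Gm11626 when strand is ignored. Ifi35 had the smallest rise of the 9: values were 1389, 1481, 986.0, 1466 and 1333 against 644.3, 698.1, 723.8, 802.0 and 756.4. Even so, replicate 10 stayed above control replicate 5, the highest control. The means were 1331 ± 202 and 725 ± 59.5 (SD, n = 5 each), and the log2 difference was 0.86 (SE 0.11). Nmi itself measured 1241 ± 153 against 1257 ± 73.2, a log2 difference of -0.02 (SE 0.08, limma adjusted p = 0.846).

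Ifi44 encodes a cytoplasmic protein with a GTP-binding motif. It lies on chromosome 3 at 151730922 to 151749960, minus strand, and was the lowest count of the 10 genes. The labelled Sirt1-deleted values were 56.85, 54.49, 42.69, 114.0 and 83.51. The control values were 9.356, 12.83, 6.561, 22.58 and 31.54. Control replicate 6 and labelled Sirt1-deleted replicate 10 came nearest to each other without crossing. The means were 70.3 ± 28.6 and 16.6 ± 10.3 (SD, n = 5 each), and the log2 difference of 2.14 (SE 0.40) had the widest error of the 10 genes.

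Rsad2 encodes viperin, a radical SAM enzyme that turns CTP into a chain terminator of viral RNA synthesis. It lies on chromosome 12 at 26442746 to 26456452, minus strand. Its values in labelled Sirt1-deleted replicates 7, 8, 10, 11 and 12 were 3439, 1262, 2749, 4516 and 2004. In controls 2 to 6 they were 1923, 599.2, 1542, 1846 and 2614. Only 3 labelled Sirt1-deleted spleens lay above the highest control, and replicate 8 lay below all controls but replicate 3. The means were 2794 ± 1261 and 1705 ± 732 (SD, n = 5 each), and the log2 difference of 0.73 (SE 0.38, 95% interval -0.10 to 1.56) did not pass the threshold. Without control replicate 3 the log2 difference was 0.39.

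**Figure D2:**
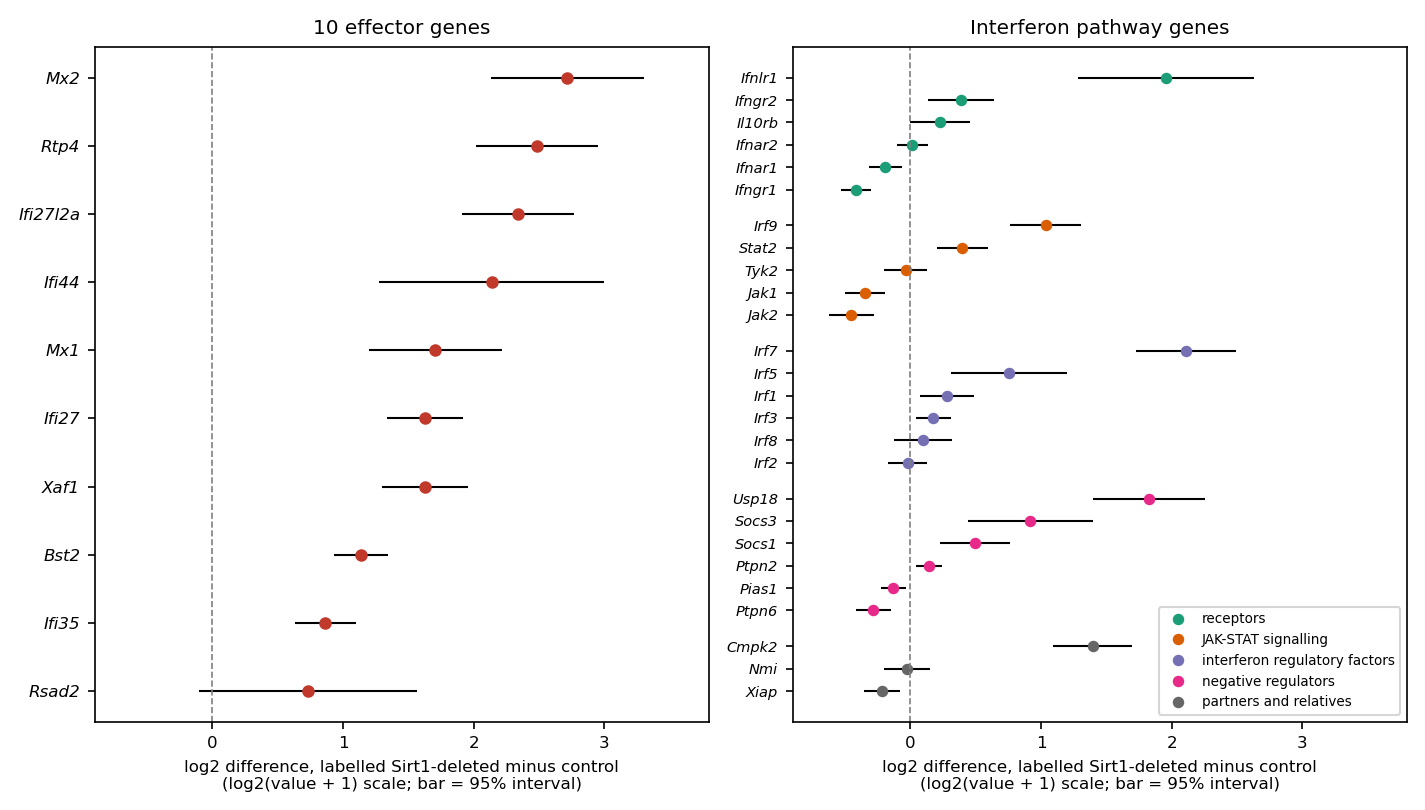
Log2 difference, labelled Sirt1-deleted minus control, on the log2(value + 1) scale, for the 10 antiviral effector genes (left) and tested genes of the interferon pathway by role (right). Points are limma estimates over 5 spleens per group and bars are 95% intervals. Among the effectors the Rsad2 bar, from -0.10 to 1.56, crosses 0; on the right, Irf7, Ifnlr1 and Usp18 lie farthest to the right.

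The choice of genes did not use how spleens of the same group differ from each other. Each value was therefore set against the mean of its own group on the log2 scale. In 9 of the 10 genes, all but Rsad2, the lowest labelled Sirt1-deleted spleen was replicate 10, whose mean deviation was -0.55. In all 10 genes it nevertheless exceeded every control, and without it 9 genes passed and the median log2 difference was 1.86. Among controls, replicate 2 was the lowest in 6 genes (mean deviation -0.27) and replicate 5 the highest in 6 genes (mean deviation 0.28). Within its group, replicate 10 also had the lowest marker sums for neutrophils (28810), macrophages and monocytes (7649), plasmacytoid dendritic cells (3878) and NK cells (12614). It had the highest sums for T lineage (175244) and stromal and endothelial markers (5429). For B cell (20424) and erythroid markers (65744) it was neither lowest nor highest. A link of these sums to the effector genes was not tested.

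**Figure D3:**
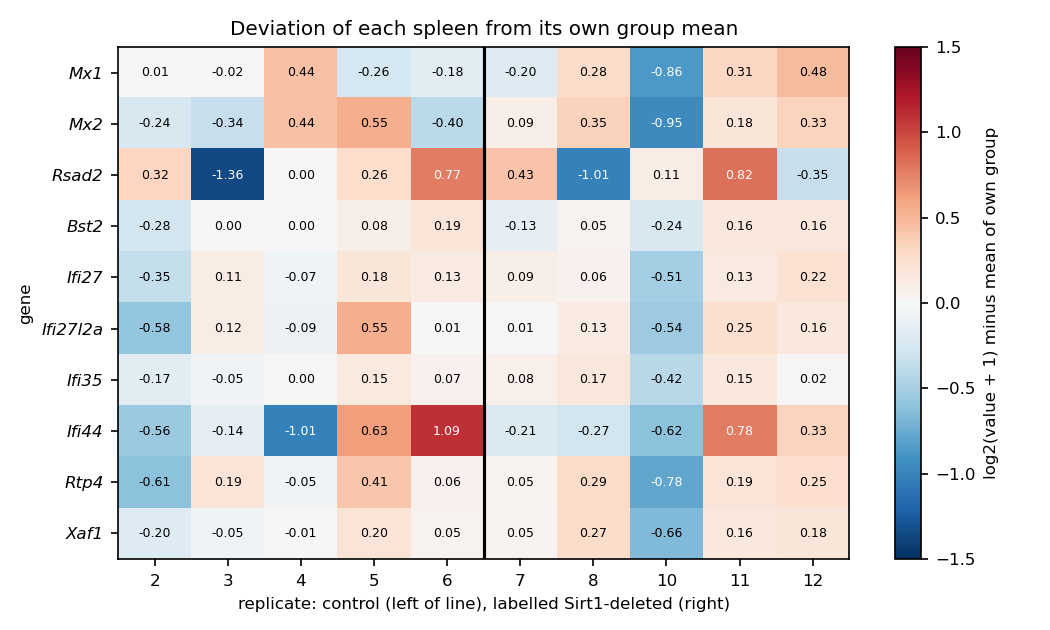
Deviation of each spleen from the mean of its own group, in log2(value + 1), for the 10 antiviral effector genes (rows) in control replicates 2 to 6 and labelled Sirt1-deleted replicates 7 to 12 (columns). Red is above and blue below the group mean. The column of replicate 10 is blue in every row but Rsad2, and the Rsad2 row has its lowest values in control replicate 3 and labelled Sirt1-deleted replicate 8.

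Across the 10 spleens, these deviations moved together in most of the genes. As a description, the Pearson r of each gene with the mean of the other 9 was 0.90 for Ifi35, 0.88 for Xaf1, 0.87 for Ifi27, 0.84 for Bst2 and 0.81 for both Ifi27l2a and Rtp4. It was 0.64 for Mx2, 0.58 for Ifi44 and 0.44 for Mx1. For Rsad2 it was -0.0087. All these values share the same 10 libraries. Labelled Sirt1-deleted replicate 10 had the largest mean deviation over the 9 genes without Rsad2 (-0.62), and no r was calculated without it. Among pairs of these 9 genes, r ran from 0.04 (Mx1 and Ifi44) to 0.97 (Ifi35 and Xaf1), with a median of 0.74. Outside the list, among 10743 genes with a mean of at least 100, the 8 with the highest r to the mean of the effector genes were Ifit1 (0.96), Gbp7 (0.93), Usp18 (0.91), Slfn8 (0.91), Igtp (0.90), Aen (0.90), Irgm2 (0.90) and Irgm1 (0.90).

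Rsad2 followed a different set of genes, which was looked up after its values were seen. Among the 8 genes with the highest r to its deviations were Slc25a37 (0.98), which encodes the mitochondrial iron importer of erythroid cells, Hbb-bt (0.97), Hba-a2 (0.97), Ube2l6 (0.97), Hba-a1 (0.96), Hbb-bs (0.95) and Slfn14 (0.95). Of these, 4 are globin genes. Red blood cells had been lysed before RNA was isolated, and the summed value of 10 erythroid markers still ranged from 23296 to 113584 in the labelled Sirt1-deleted spleens and from 27032 to 95850 in controls. The erythroid sums of labelled Sirt1-deleted replicates 7, 8, 10, 11 and 12 were 91265, 23296, 65744, 113584 and 36299. This is the order of Rsad2 in the same spleens, with replicate 8 lowest and replicate 11 highest. Control replicate 3 was the lowest control and replicate 6 the highest control by both measures.

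The mean deviation of the 10 erythroid markers had a Pearson r of 0.95 and a Spearman rho of 0.92 with that of Rsad2 over the 10 spleens. Hba-a1, Hbb-bs and Hbb-bt are in this marker list and were already among the genes found most like Rsad2. The r therefore partly restates that search in the same libraries and is not separate support. Pearson r was 0.89 over the 8 spleens left without labelled Sirt1-deleted replicate 8 and control replicate 3. For the mean of the other 9 effector genes Pearson r with the erythroid markers was -0.14. None of the 10 erythroid markers passed the threshold between the groups in either direction. Their log2 differences still leaned lower in the labelled Sirt1-deleted spleens, from -1.09 to 0.03 with a median of -0.18, and only 1 was above 0. In a fit with the erythroid level as a covariate, added after these values were seen, the log2 difference of Rsad2 was 1.02 (SE 0.13, 95% interval 0.72 to 1.31). The covariate was picked because it followed Rsad2 within groups, so an SE below the 0.38 of the main fit was built in. A covariate that leans between the groups also moves the log2 difference itself, which was 0.73 in the main fit. For Rsad2 this interval is therefore a description and not a test. All 10 effector genes then passed as higher, beside 15.2% of all tested genes, and the call of Rsad2 rests on that choice. The log2 differences of the other 9 moved little, for example 1.13 for Bst2 and 2.68 for Mx2. Whether the Rsad2 reads come from erythroid cells was not tested.

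**Figure D4:**
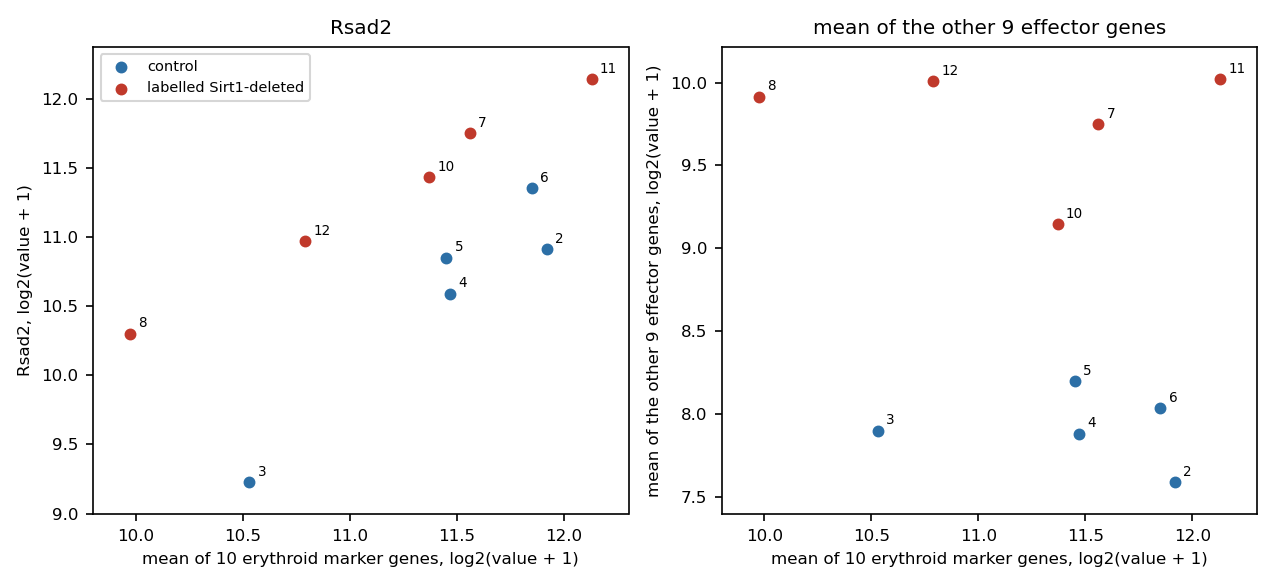
Level of Rsad2 (left) and mean level of the other 9 effector genes (right) against the mean level of 10 erythroid marker genes, all as log2(value + 1), for the 5 control (blue) and 5 labelled Sirt1-deleted (red) spleens with their replicate numbers. Rsad2 rises with the erythroid markers in both groups (Pearson r of within-group deviations 0.95), and the other 9 genes do not (-0.14).

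Markers of 2 myeloid cell types moved with the groups in the same direction as the 9 genes. Of 14 neutrophil markers, 13 were higher in limma, with summed values of 28810 to 98569 in the labelled Sirt1-deleted spleens and 9118 to 12595 in controls. Of 16 macrophage and monocyte markers, 12 were higher, with sums of 7649 to 14669 and 3808 to 4324. Over all tested genes, 16.8% were higher in limma. No marker of either list was at 0 in any spleen. Replicate 8 had the highest neutrophil and macrophage sums, at 98569 and 14669, and was the highest of its group in 4 effector genes: Mx2, Ifi35, Rtp4 and Xaf1. Replicate 11 was also the highest in 4 of the 10 genes (Rsad2, Bst2, Ifi27l2a and Ifi44) and had the highest mean deviation (0.31), with a neutrophil sum of 39439. Over the deviations of the 10 spleens from their group means, the mean of the 9 genes without Rsad2 had an r of 0.48 with the neutrophil markers and 0.40 with the macrophage and monocyte markers. Over all 8 marker lists, it ran from -0.78 for stromal and endothelial markers to 0.70 for B cell markers. These r values describe values that share a library and carry no test. The part of these cells in the values of the effector genes was not tested.

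The rest of the pathway was described from a list of 53 genes, of which 31 had values and 27 were tested. Of the 27, 14 rose and 7 fell (limma adjusted p under 0.05), beside 16.8% and 19.4% of all tested genes. The median log2 difference over the 27 was 0.17. Calls of 7 genes were lost in at least 1 of the 20 other fits (Ifnar1, Ifngr2, Irf1, Irf3, Pias1, Ptpn2 and Xiap), and no called gene changed sign in any of them. Under upper-quartile rescaling 14 rose and 4 fell, and the calls of Ifnar1, Pias1 and Xiap were lost.

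Among the ligand genes, Ifnab and Ifng had values, and neither reached the level needed for a test. Ifng, the gene of the type II interferon, had 5.436 to 10.07 normalized counts in the labelled Sirt1-deleted spleens and 1.647 to 9.451 in controls. Ifnab was at 3.183 or less in every spleen and was listed at 0 in 1 spleen of each group. The other 18 ligand genes of the list had no values in the deposited table. Whether a filter removed them is not given, so nothing can be said of their levels.

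Of the 6 receptor genes, 2 rose (Ifngr2 and Ifnlr1) and 2 fell (Ifnar1 and Ifngr1). Ifnar1, a chain of the type I receptor, had means of 1451 ± 103 and 1655 ± 49.6 and fell by 0.19 on the log2 scale (limma adjusted p = 0.0212), and its partner Ifnar2 measured 1498 ± 106 against 1479 ± 27.7 in controls (limma adjusted p = 0.857). Ifngr1, the ligand-binding chain of the type II receptor, fell by 0.42 on the log2 scale, with means of 1485 ± 34.01 and 1984 ± 127 (limma adjusted p = 3.90e-04). Ifnlr1, the receptor chain for interferon lambda, rose by 1.96 on the log2 scale, with means of 52.0 ± 22.2 and 12.6 ± 5.43 (limma adjusted p = 0.00101). Errors in these pathway values are SD over 5 spleens.

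In the signalling relay, 2 of the 3 kinase genes fell and the transcription factor genes Stat2 and Irf9 rose. Jak1 fell by 0.35 on the log2 scale (limma adjusted p = 0.00303) and Jak2 by 0.45 (limma adjusted p = 0.00163), while Tyk2 differed by -0.04 (limma adjusted p = 0.733). Stat2 rose by 0.40 (limma adjusted p = 0.00573). Irf9 had 2944, 2926, 1879, 2862 and 2638 normalized counts in the labelled Sirt1-deleted spleens and 1041, 1353, 1233, 1484 and 1304 in controls (log2 difference 1.04, limma adjusted p = 2.96e-04). For Irf9 too, the lowest labelled Sirt1-deleted spleen was replicate 10.

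Irf7, which encodes the factor that amplifies interferon production and is itself induced by it, had the largest rise among the pathway genes. It measured 1815, 2012, 1043, 2098 and 2095 in the labelled Sirt1-deleted spleens and 339.2, 460.6, 370.2, 479.7 and 399.4 in controls. Its log2 difference was 2.11 (SE 0.18, limma adjusted p = 3.52e-05), and the groups did not overlap. Irf5 rose by 0.75 (limma adjusted p = 0.0132), Irf1 by 0.28 (limma adjusted p = 0.0351) and Irf3 by 0.17 (limma adjusted p = 0.0448). Irf2 and Irf8 differed by -0.02 and 0.10 and did not pass.

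Of 6 negative regulators, 4 rose and 2 fell. Usp18, the ISG15 protease that also blocks IFNAR signalling, rose by 1.83 on the log2 scale, with means of 762 ± 210 and 208 ± 31.4 (limma adjusted p = 1.52e-04). Socs1 rose by 0.49 (limma adjusted p = 0.00906), Socs3 by 0.92 (limma adjusted p = 0.00764) and Ptpn2 by 0.14 (limma adjusted p = 0.0316). The phosphatase gene Ptpn6 and the STAT inhibitor gene Pias1 fell by 0.28 and 0.13 (limma adjusted p = 0.00446 and 0.0385). Cmpk2, which lies next to Rsad2 and encodes a mitochondrial nucleotide kinase, rose by 1.40 on the log2 scale (SE 0.14, limma adjusted p = 1.04e-04), with means of 1629 ± 258 and 620 ± 111. Its values did not overlap between the groups, unlike those of Rsad2, and its deviations had an r of 0.34 with those of Rsad2.

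Beside the median log2 difference of 1.67 over the 10 effector genes, the 11 tested IFIT and IFITM genes had a median of 2.20. Of these 11, 9 were higher in limma, beside 16.8% of all tested genes. In 5 of the 11 the groups did not overlap, all as higher, beside 11.1% of all tested genes. The difference between these lists was not tested.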

How the data were processed

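RNA from 10 leukemic spleens was sequenced from strand-specific libraries, per the labels' protocols. Reads were quantified with kallisto 0.44.0 and normalized with DESeq on mm10, per the submitters' processing notes; their annotation is not given in the sources used here, nor is any filter on genes. The table as deposited holds, for each gene, a count scaled by normalization factors, which is treated as a signal. Between 68.0% and 73.9% of low values lay within 0.1 of a whole read, so no count model was used and no counting intervals are given. The table had 0 columns outside the 10 samples.

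Genes with a mean of at least 10 (15276 genes) were analysed as log2(value + 1) with limma 3.58.1 in R 4.3.3 (group as the only term, intensity trend, Benjamini-Hochberg adjustment, threshold 0.05). Log2 differences understate the change of low genes. In simulated data for 15276 genes, the fit found 97 of 100 2-fold changes and 75 of 100 1.5-fold changes, with 7 false calls. How often changes of these sizes are found at the spread of the effector genes was not tested. The SD of the effector genes within groups, on the log2 scale, ran from 0.18 for Bst2 to 0.76 for Rsad2. The effector genes and all lists were chosen with earlier results of these data known. The genes to be named were the 10 effectors, the pathway lists, and the 8 genes with a mean of at least 100 most like the effectors within groups. Genes most like Rsad2 were added to these after its values were seen. Alternatives were other pseudocounts, filters, scalings, limma settings, tests and thresholds, and each sample left out. Some genes of the lists are not reported here. Coordinates, gene types and words of 31 bases came from GENCODE M21 (GRCm38, the same build as mm10). Marker lists of 8 cell types were examined; of B cell markers 1 of 8 passed (higher), of NK cell markers 0 of 4 in limma, and of stromal and endothelial markers 2 of 6 (lower).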

Additional observations from a re-analysis of the deposited data

Results flagged for a closer look

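For each gene and group of 5 spleens, the distance of the outermost spleen from the next was taken as a share of the group's whole range. Of 74 sets, 9 exceeded the critical ratio of 0.71, where chance at 1 in 20 gives 3.7; genes of this pathway move together, so the sets are not independent.

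Labelled Sirt1-deleted replicate 10 stood apart as the lowest of its group in 4 genes. Mx2 was at 168.0 normalized counts against 348.4 to 416.1 in the other 4 spleens. Ifi27 was at 3249 against 4813 to 5395. Irf9 was at 1879 against 2638 to 2944, and Irf7 at 1043 against 1815 to 2098.

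Control replicate 2 stood apart as the highest control in 3 genes of receptors and their kinase. Ifnar2 was at 1527 against 1461 to 1477 in the other controls, Ifngr2 at 683.7 against 590.7 to 608.7, and Jak1 at 9461 against 8336 to 8630. Ifnlr1 was high in 1 spleen of each group: labelled Sirt1-deleted replicate 8, at 90.16 against 36.39 to 51.24, and control replicate 4, at 22.1 against 9.529 to 12.06.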

How the results depend on the processing

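A paired analysis could not be made, since no replicate number occurs in both groups. The number of effector genes that passed was 9 in each fit that left out 1 spleen, 8 with a minimum mean of 50, which removed Ifi44 from the test, and 10 with the erythroid covariate. Their median log2 difference was 1.58 to 1.86 without 1 spleen and 1.63 to 1.73 in the fits of all spleens. The total of genes passing was 2850 (1328 higher, 1522 lower) at an adjusted p under 0.01 and 3659 by exact rank-sum tests (1691 higher, 1968 lower), and 4207 to 6259 without 1 spleen. Pathway genes passing numbered 13 (9 higher, 4 lower) at an adjusted p under 0.01, and 16 to 21 without 1 spleen. The log2 difference of Rsad2 was 0.39 to 0.98 without 1 spleen; it passed with the erythroid covariate, which was chosen after seeing the data, and in no other fit. Annotation-dependent read sharing could not be examined without reads.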
